A study of Homo sapiens with 6 samples.

Results

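The glucose uptake and glycolysis genes described here are a set of 10: SLC2A1, TXNIP, HK1, HK2, PFKP, PFKFB3, PGK1, ENO1, PKM and LDHA. They were found in the deposited expression table by matching their symbols to the Ensembl gene identifiers, and all 10 were present among its 58735 genes. The cells were HOK-16B, immortalised keratinocytes from the human mouth lining that keep dividing in culture. In 3 libraries the cells had been pretreated with cannabidiol (CBD), a plant cannabinoid that does not intoxicate, and in 3 libraries with vehicle alone. Cells of both groups then received an inflammatory stimulus, whose agent, dose and duration the labels do not name, and no unstimulated cells were analysed here. Total RNA was sequenced in pairs of reads, and the question was how CBD altered gene expression in the stimulated cells. The labels do not say whether replicates came from separate cultures, so each p-value measures the spread between these libraries, which may be technical.

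Glucose enters most epithelial cells through facilitative transporters of the SLC2A family, is trapped by hexokinases, and is split and oxidised to pyruvate by the enzymes of glycolysis. Lactate dehydrogenase can then reduce the pyruvate to lactate, which regenerates the NAD+ that glycolysis needs. In keratinocytes this pathway supplies much of the energy for proliferation, and many of its genes are known targets of the transcription factors HIF-1, which responds to low oxygen and to inflammatory signals, and MYC. TXNIP, an alpha-arrestin induced by glucose, restrains the pathway at its entry by promoting removal of glucose transporters from the cell surface.

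None of the 10 genes passed the test between CBD and vehicle, which was limma on log2(FPKM + 1) with Benjamini-Hochberg adjustment over 12517 tested genes at an adjusted p of 0.05. FPKM is the number of sequenced fragments scaled to library size and to length, here that of all annotated exons of a gene. A gene was tested where its mean was at least 1 FPKM, which all 10 genes reached. The glucose transporter SLC2A1 came nearest, with a mean 28.5% higher in CBD cells and an adjusted p of 0.0502 by limma. TXNIP had a mean 19.4% higher, while the means of LDHA and HK2 were 12.5% and 10.1% lower in CBD cells. The other 6 genes had means within 7.40% of vehicle.

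Of the 10 genes, 0 were called higher and 0 lower in CBD cells, and 0.352% of all tested genes were called, 32 higher and 12 lower. In 4 genes every CBD library lay above every vehicle library, an arrangement found in 18.7% of all tested genes, and in 4 others every CBD library lay below every vehicle library, as in 21.9% of all tested genes. An unadjusted limma p under 0.05 was reached by 4 of the 10 genes (SLC2A1, TXNIP, HK2 and LDHA), and by 31.4% of all tested genes. The log2 differences were above 0 in 5 genes and below 0 in 5, with a median of 0.01, against a median of -0.01 over all tested genes. The median size of the difference, regardless of sign, was 0.09 on the log2 scale for the 10 genes and 0.13 for all tested genes. The 44 called genes had differences of at least 0.33 in size on that scale, a size that SLC2A1 alone among the 10 genes exceeded.

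**Figure D1:**
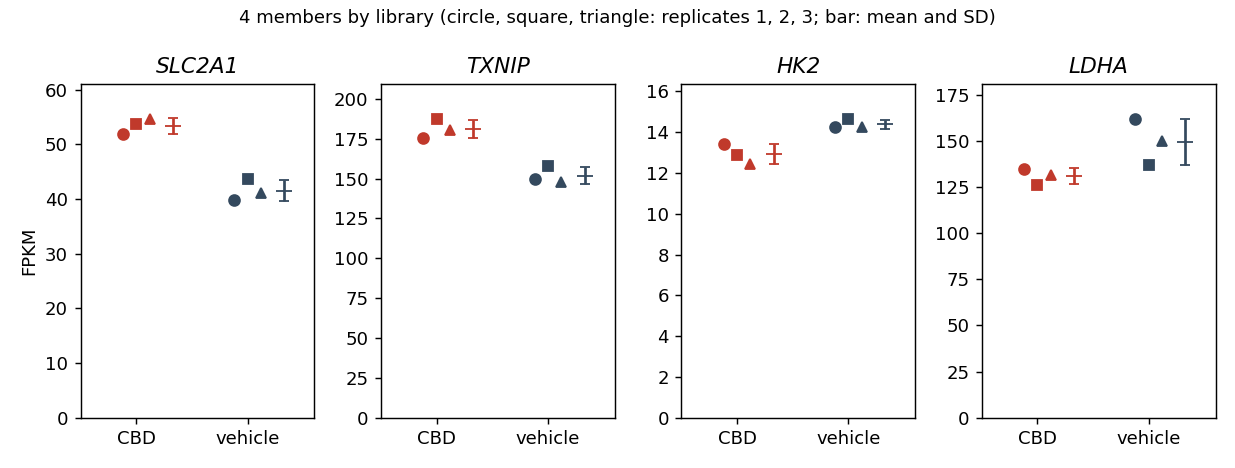
FPKM of SLC2A1, TXNIP, HK2 and LDHA in each library, on axes that start at 0, with CBD to the left of vehicle, 1 point per library (circle, square and triangle for replicates 1, 2 and 3) and the mean and SD as a bar. The CBD points of SLC2A1 and TXNIP all lie above the vehicle points and those of HK2 and LDHA all lie below, and none of the 4 genes passed the test after adjustment.

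The entry step was represented by SLC2A1 (ENSG00000117394), which encodes GLUT1, the main basal glucose transporter of keratinocytes, on chromosome 1 from 42925375 to 42959176, minus strand (GRCh38, GENCODE 29). It stood at 51.8, 53.8 and 54.6 FPKM in the CBD libraries, against 39.8, 43.6 and 41.2 FPKM in the vehicle libraries. The groups did not overlap, and the lowest CBD library exceeded the highest vehicle library. The means were 53.4 ± 1.42 FPKM with CBD and 41.5 ± 1.95 FPKM with vehicle (SD, n = 3 each). The log2 difference was 0.36 ± 0.05 (SE, 95% interval 0.23 to 0.48), with an unadjusted p of 0.000238 in limma. Over 15 alternative ways of processing, the adjusted limma p of SLC2A1 ran between 0.00898 and 0.210, and 4 of them placed it under the threshold. Those 4 settings also called more of all tested genes than the main test did. They called 13.9% with a count model (limma-voom) and 1260 higher and 1072 lower of 12524 without vehicle replicate 2. With a mean of at least 5 FPKM 427 and 305 of 7275 were called, and with median-ratio scaling 47 and 14 of 12517.

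TXNIP (ENSG00000265972, chromosome 1 from 145992435 to 145996600, minus strand) stood at 176, 187 and 181 FPKM in CBD libraries, against 149.5, 158 and 148 FPKM in vehicle libraries. Both TXNIP and the transporter whose removal its protein promotes were therefore higher in every CBD library than in any vehicle library. TXNIP averaged 181 ± 5.78 FPKM with CBD and 152 ± 5.29 FPKM with vehicle (SD, n = 3 each), a log2 difference of 0.25 ± 0.05 (SE, 95% interval 0.13 to 0.37) with an adjusted p of 0.0604 in limma. In 3 of the 15 alternatives TXNIP passed, and its adjusted limma p ran between 0.0165 and 0.210. These were the settings that called SLC2A1, apart from median-ratio scaling. Within each library TXNIP exceeded SLC2A1 by 1.76 ± 0.0356 on the log2 scale with CBD and by 1.87 ± 0.0351 with vehicle (SD, n = 3 each). The 3 CBD ratios lay below the 3 vehicle ratios, with a two-sided exact permutation p of 0.1, the smallest that 3 libraries against 3 allow.

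Hexokinases phosphorylate glucose so that it stays in the cell. HK1 (ENSG00000156515, chromosome 10 from 69269984 to 69401884) is the broadly expressed form, and HK2 (ENSG00000159399, chromosome 2 from 74833981 to 74893359) is the inducible form. HK2 stood at 13.4, 12.9 and 12.4 FPKM in CBD libraries, against 14.3, 14.6 and 14.3 FPKM in vehicle libraries. Each CBD library was below each vehicle library, with means of 12.9 ± 0.501 FPKM for CBD and 14.4 ± 0.209 FPKM for vehicle (SD, n = 3 each). The log2 difference of HK2 was -0.14 ± 0.05 (SE, 95% interval -0.26 to -0.03), with an adjusted p of 0.104 in limma, and no alternative placed it under the threshold. HK1 stood at 33.2, 31.5 and 31.2 FPKM in CBD libraries, against 27.6, 30.7 and 31.0 FPKM in vehicle libraries. The HK1 groups touched without overlapping, vehicle replicate 1 was lowest, and the log2 difference was 0.10 (95% interval -0.04 to 0.24) with an adjusted limma p of 0.275.

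The members of an enzyme family can be weighed against each other within a library. HK2 made up 28.8%, 28.9% and 28.4% of the summed hexokinase FPKM in CBD libraries, against 34.1%, 32.2% and 31.4% in vehicle libraries. Its share was 28.7% ± 0.261 with CBD and 32.6% ± 1.34 with vehicle (SD, n = 3 each), a difference of -3.85 percentage points. As HK2 lay wholly below vehicle and HK1 wholly above, the separation of this share followed from the values of both genes. SLC2A1 made up 62.6%, 63.6% and 64.6% of the summed FPKM of the 14 SLC2A transporters in CBD libraries, against 59.0%, 59.2% and 59.7% in vehicle libraries. Its share was thus 4.27 percentage points higher in CBD cells, without overlap. LDHA made up 94.6% ± 0.158 of the lactate dehydrogenases with CBD and 94.99% ± 0.239 with vehicle (SD, n = 3 each). ENO1 made up 99.4% ± 0.0855 of the enolases with CBD and 99.6% ± 0.0406 with vehicle (SD, n = 3 each), again without overlap. For PFKP and PFKFB3 the shares of their families overlapped between the groups, and PKM and PGK1 were close to the whole of theirs in every library. The 8 shares were chosen after the values were seen, and the exact permutation p of each non-overlapping share was 0.1, the smallest possible, or 0.2 after Benjamini-Hochberg adjustment over the 8.

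The commitment step runs through phosphofructokinase, of which PFKP (ENSG00000067057, chromosome 10 from 3066333 to 3137712) is the platelet-type isoform. It averaged 27.2 ± 0.528 FPKM with CBD and 25.9 ± 0.925 FPKM with vehicle (SD, n = 3 each), and the groups overlapped. PFKFB3 (ENSG00000170525, chromosome 10 from 6144934 to 6254644) makes fructose 2,6-bisphosphate, a strong activator of phosphofructokinase, and is induced by inflammatory signals in many cell types. Its level of 3.55 ± 0.258 FPKM with CBD and 3.69 ± 0.0956 FPKM with vehicle (SD, n = 3 each) was the lowest of the 10 genes. The 95% intervals of the log2 difference were -0.05 to 0.18 for PFKP and -0.19 to 0.10 for PFKFB3. The adjusted limma p was 0.368 for PFKP and 0.645 for PFKFB3.

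PGK1, ENO1 and PKM encode enzymes of the second stage of the pathway, where ATP is made. PGK1 (phosphoglycerate kinase, ENSG00000102144, chromosome X from 77910739 to 78129296) had 97.3, 95.4 and 94.99 FPKM in CBD libraries, against 97.4, 98.1 and 97.4 FPKM in vehicle libraries. Its means, 95.9 ± 1.21 FPKM with CBD and 97.7 ± 0.387 FPKM with vehicle (SD, n = 3 each), gave a change of -1.82%, and the adjusted limma p was 0.677. ENO1 (enolase, ENSG00000074800, chromosome 1 from 8861000 to 8879250) had 335, 324 and 321 FPKM in CBD libraries, against 339, 341 and 351 FPKM in vehicle libraries. All 3 CBD libraries of ENO1 were lower, by a log2 difference of -0.07 that did not pass (adjusted limma p 0.313). PKM (pyruvate kinase, ENSG00000067225, chromosome 15 from 72199029 to 72231822) had 281.9, 282.7 and 277.2 FPKM in CBD libraries, against 262.9, 277.1 and 274.0 FPKM in vehicle libraries. The PKM groups were barely separated, with a log2 difference of 0.05 and an adjusted limma p of 0.490.

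LDHA (ENSG00000134333, chromosome 11 from 18394388 to 18408425) encodes the lactate dehydrogenase subunit that favours lactate production. It had 134.7, 126.3 and 131.6 FPKM in CBD libraries, against 161.7, 136.7 and 150.1 FPKM in vehicle libraries. The CBD libraries were all lower, at 131 ± 4.25 FPKM with CBD and 149 ± 12.5 FPKM with vehicle (SD, n = 3 each), and the vehicle libraries were spread more widely. The log2 difference was -0.19 ± 0.07 (SE, 95% interval -0.35 to -0.02), with an adjusted p of 0.125 in limma. Leaving out vehicle replicate 2, the lowest of the vehicle libraries, gave -0.25 with an adjusted limma p of 0.0378, and leaving out vehicle replicate 1, the highest, gave -0.13. Without vehicle replicate 2, 1260 of 12524 tested genes were called higher and 1072 lower. LDHA stood below PKM by 1.10 ± 0.0537 on the log2 scale in CBD libraries and by 0.86 ± 0.159 in vehicle libraries (SD, n = 3 each), without overlap and with an exact permutation p of 0.1. Since LDHA lay wholly below vehicle and PKM wholly above, the ratios had to separate, so that p adds nothing to the values of the genes themselves.

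Levels between genes can be compared only roughly, because FPKM was scaled here by the length of all annotated exons, not of the transcripts present. The order below and the family shares above depend on that annotation. TXNIP, with 3625 exon bases, had fewer fragments than LDHA, with 6210, in every library. Over all 6 libraries the order of the mean levels was ENO1 at 335 FPKM, PKM at 276, TXNIP at 166, LDHA at 140, PGK1 at 96.8, SLC2A1 at 47.5, HK1 at 30.9, PFKP at 26.6, HK2 at 13.7 and PFKFB3 at 3.62. Thus transcripts of the second-stage enzymes stood at far higher FPKM than those of the hexokinases and phosphofructokinase that precede them. The highest mean was 92.5 times the lowest. Each gene lay above the next in all 6 libraries, except that TXNIP exceeded LDHA in 4 of 6. The ranges over libraries overlapped for that pair and for no other neighbours.

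**Figure D2:**
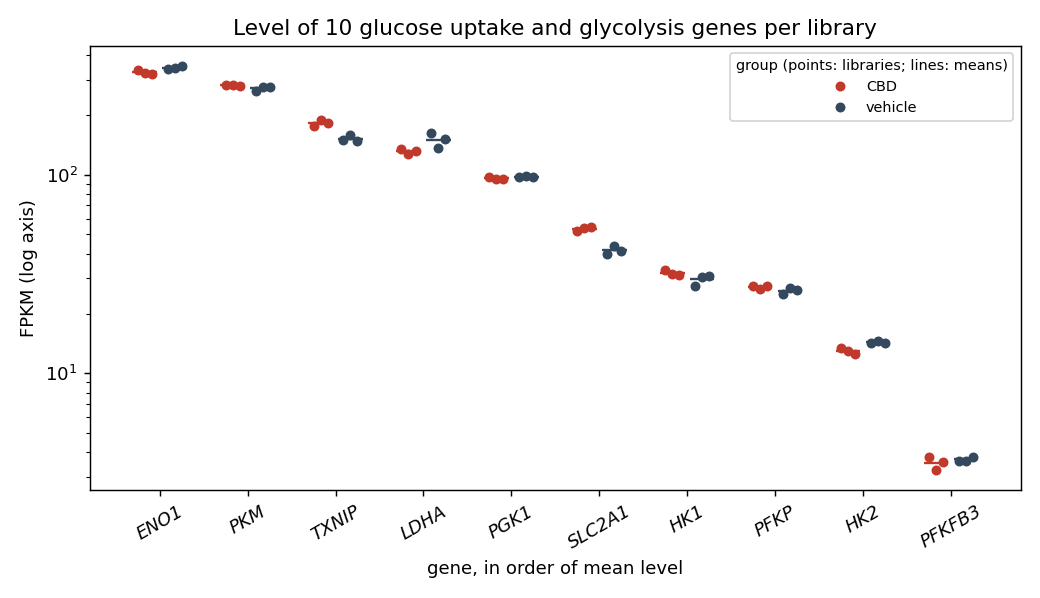
FPKM of the 10 genes in each of the 6 libraries on a log axis, ordered by mean level, with CBD in red to the left of vehicle in dark blue and a line at each group mean. Levels run from 335 FPKM for ENO1 to 3.62 FPKM for PFKFB3, a span far greater than the differences between the groups. Some neighbours, such as HK1 at 30.9 and PFKP at 26.6 FPKM, lie closer on this axis than the SLC2A1 means of 53.4 FPKM with CBD and 41.5 FPKM with vehicle.

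The sequence in front of the start is shown for the 4 genes with an unadjusted p under 0.05, to place the motifs of the transcription factors named above. Each line gives the 250 bases before the RefSeq start nearest to the GENCODE 29 5′ end (RefSeq, GRCh38.p14), read 5′ to 3′ on the gene's own strand, with motif letters in capitals. The windows are chr1:42958869-42959118, minus strand, for SLC2A1, chr1:145996580-145996829, minus strand, for TXNIP, chr2:74833877-74834126, plus strand, for HK2 and chr11:18394313-18394562, plus strand, for LDHA. GENCODE 29 places the outermost 5′ end of these genes 308, 21, 146 and 175 bases from the RefSeq start, each on the upstream side, so the whole SLC2A1 window and parts of the other 3 lie downstream of the outermost annotated start.
SLC2A1: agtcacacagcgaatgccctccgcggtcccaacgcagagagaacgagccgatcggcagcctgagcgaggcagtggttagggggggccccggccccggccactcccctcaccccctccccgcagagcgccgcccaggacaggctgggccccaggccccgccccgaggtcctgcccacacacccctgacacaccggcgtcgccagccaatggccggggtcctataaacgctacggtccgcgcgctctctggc
TXNIP: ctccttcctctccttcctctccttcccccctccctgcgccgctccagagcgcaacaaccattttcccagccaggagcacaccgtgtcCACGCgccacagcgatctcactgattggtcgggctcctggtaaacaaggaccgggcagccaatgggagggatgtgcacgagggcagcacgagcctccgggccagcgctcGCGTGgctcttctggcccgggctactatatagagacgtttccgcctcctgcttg
HK2: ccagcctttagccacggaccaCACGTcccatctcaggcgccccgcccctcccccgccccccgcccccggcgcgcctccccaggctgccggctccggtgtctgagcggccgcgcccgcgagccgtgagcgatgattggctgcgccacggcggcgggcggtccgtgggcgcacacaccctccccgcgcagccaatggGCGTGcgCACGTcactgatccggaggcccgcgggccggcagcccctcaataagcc
LDHA: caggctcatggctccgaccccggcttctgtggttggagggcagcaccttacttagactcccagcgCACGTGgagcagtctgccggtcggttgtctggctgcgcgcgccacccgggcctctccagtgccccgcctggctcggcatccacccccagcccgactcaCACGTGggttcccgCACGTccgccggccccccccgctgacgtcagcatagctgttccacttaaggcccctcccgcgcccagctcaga
Capitals mark ACGTG and GCGTG, the core letters of HIF-1 sites, and CACGTG, an E-box bound by MYC and by the glucose-responsive factors MLXIP and MLXIPL. Both strands were searched, so that CACGT and CACGC are the same motifs on the other strand. Every CACGTG also contains ACGTG on each strand.

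The LDHA window held CACGTG with its first base at positions -185 and -87, counted back from -1 as the base before the start, and another ACGTG on the opposite strand at -73. HK2 had ACGTG on the opposite strand at -229 and -48 and GCGTG at -55. TXNIP had GCGTG at -54 and, on the opposite strand, at -163, while the SLC2A1 window held none of the 3 motifs. Among the 10 genes, 3 windows held ACGTG, 5 held GCGTG and 1 held CACGTG, beside 18.5%, 32.2% and 6.31% of 34788 RefSeq windows of the same length. Only these exact letters were searched, so sites of the same factors with other letters, in TXNIP or elsewhere, are not marked. A match of letters is a description of the window and was not tested for binding.

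**Figure D3:**
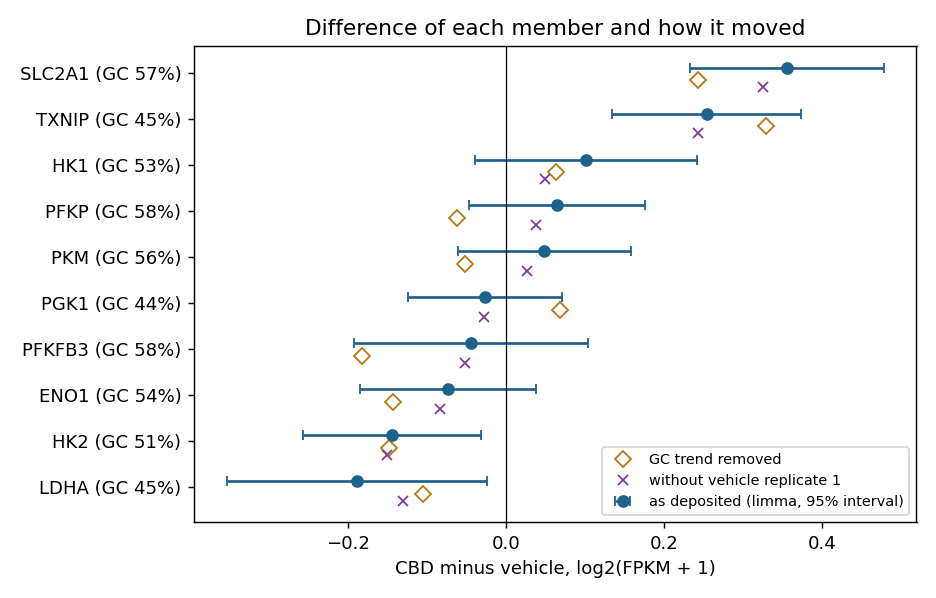
Difference of each gene, CBD minus vehicle, on the log2(FPKM + 1) scale, with limma's 95% interval (filled circles), beside the same difference after removal of the GC trend (diamonds) and without vehicle replicate 1 (crosses), and each gene's transcript GC content in brackets. The intervals of SLC2A1 and TXNIP lie above 0 and those of HK2 and LDHA below 0, while the diamonds of PFKP, PGK1 and PKM lie on the other side of 0 from their circles.

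The libraries held between 18213784 and 22158614 fragments assigned to genes, and each of the 10 genes was covered by 453 to 57639 fragments per library. Vehicle replicate 1 stood apart from the other libraries on the first principal component, which held 47.7% of the variance, and vehicle replicate 2 lay nearest to the CBD libraries. The mean GC content of the transcripts behind the fragments was 50.7% ± 0.0437 in CBD libraries and 49.97% ± 0.386 in vehicle libraries (SD, n = 3 each, exact permutation p 0.1), without overlap. Of keratinocyte markers, 10 of 10 were tested and 0 were called, and their summed level was 12561 to 13159 FPKM in CBD libraries, against 10231 to 12038 FPKM in vehicle libraries. Most of that sum was KRT5, KRT14 and KRT17. Of the 10 markers, 4 lay wholly above vehicle and 1, KRT6A, wholly below, beside 18.7% and 21.9% of all tested genes, and the rest overlapped. Summed fibroblast markers ran from 8.94 to 8.99 FPKM with CBD and from 6.94 to 7.70 FPKM with vehicle, nearly all of it COL1A1, with PDGFRA at 0 throughout and 1 of 7 markers tested. Immune markers summed to 3.99 to 5.20 FPKM with CBD and 3.49 to 4.59 FPKM with vehicle, with CD3D and CD3E at 0 and 2 of 7 tested. Melanocyte markers summed to 1.41 to 1.603 FPKM with CBD and 1.02 to 1.53 FPKM with vehicle, with TYR at 0 and 1 of 4 tested. Endothelial markers reached at most 0.174 FPKM in sum in each library, and 0 of 5 were tested. In such bulk RNA, fewer cells of a type and less RNA per cell cannot be told apart, and the part of cell make-up in the differences above was not tested.

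The transcripts of the 10 genes span 43.9% GC for PGK1 to 58.4% for PFKFB3. Because GC content differed between the groups without overlap, a technical GC trend and a change made by CBD cannot be told apart. With a smooth GC trend removed from each library, the log2 difference of SLC2A1 (56.9% GC) was 0.24 and that of TXNIP (45.2% GC) was 0.33, each with an adjusted limma p of 0.0787. HK2 (50.6% GC) stayed at -0.15, and LDHA (44.7% GC) was -0.10. HK1 (52.5% GC) was at 0.06, ENO1 (54.3% GC) at -0.14, against -0.07 as deposited, and PFKFB3 at -0.18, against -0.04 as deposited. The small differences of 3 genes changed sign, to -0.06 for PFKP, -0.05 for PKM and 0.07 for PGK1. Without vehicle replicate 1 the difference of SLC2A1 was 0.33, that of TXNIP 0.24 and that of HK2 -0.15. A count model (limma-voom) on whole reads recovered from the FPKM values called 1745 genes, 13.9% of all tested genes, and 2 of the 10, SLC2A1 (adjusted p 0.00898) and TXNIP (adjusted p 0.0165), both higher in CBD cells.

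Near-identical copies of the genes were read beside them. GENCODE 29 annotates 17 pseudogenes by name for 5 of the 10 genes, and their summed FPKM was at most 0.765% of the parent's level, for LDHA, whose LDHAP4 averaged 1.01 FPKM. In 6 of the 10 genes some exon bases are shared with another annotated gene, at most 2.71% of the bases, in SLC2A1.

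The genes whose pattern over the 6 libraries was most like that of SLC2A1, among 12507 other tested genes, were SIGIRR, CDKN2B and EPPK1. Likeness was the root mean square difference of log2(FPKM + 1) values after each gene was centred on its own mean, and it was 0.0209, 0.0250 and 0.0252 for these 3. SIGIRR, a restrainer of interleukin-1 receptor signalling, averaged 3.38 ± 0.174 FPKM with CBD and 2.47 ± 0.212 FPKM with vehicle (SD, n = 3 each). CDKN2B, a cyclin-dependent kinase inhibitor, averaged 18.8 ± 0.860 FPKM with CBD and 14.7 ± 0.991 FPKM with vehicle (SD, n = 3 each). EPPK1, which encodes the cytoskeletal linker epiplakin, averaged 5.06 ± 0.135 FPKM with CBD and 3.64 ± 0.215 FPKM with vehicle (SD, n = 3 each). The closest to LDHA were MSANTD4 at 0.0102, the translation initiation factor gene EIF5 at 0.0138 and the spliceosomal gene SNRPF at 0.0144. EIF5 averaged 28.9 ± 0.691 FPKM with CBD and 33.2 ± 2.71 FPKM with vehicle (SD, n = 3 each). None of these 6 genes was called by limma, with adjusted p between 0.0502 for EPPK1 and 0.158 for SNRPF. They were picked by likeness over the same 6 libraries, so the direction and rough size of their group differences follow from the choice.

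The rest of glucose metabolism was read through 9 lists holding 91 genes, of which 66 were tested. By limma 0 of the 66 were called higher and 0 lower, and the lowest adjusted p was 0.0538. An unadjusted limma p under 0.05 was reached by 29 of the 66, a larger share than the 31.4% of all tested genes. The CBD libraries lay wholly above the vehicle libraries in 22 of the 66 genes, a larger share than the 18.7% of all tested genes. They lay wholly below in 15, close to the 21.9% of all tested genes. These percentages are also the shares to read each list's counts against. The lists were not tested as sets. The median log2 difference of the 66 genes was 0.03. Limma-voom on the recovered reads called 10 higher and 4 lower, beside 13.9% of all tested genes called in either direction.

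Among lactate and pyruvate carriers, all 7 were tested, 4 lay wholly above vehicle and 2 wholly below, with a median log2 difference of 0.12 that was -0.01 with the GC trend removed. SLC16A3, the MCT4 lactate exporter of glycolytic cells, averaged 40.6 ± 1.26 FPKM with CBD and 29.6 ± 5.06 FPKM with vehicle (SD, n = 3 each). Its log2 difference of 0.46, larger than that of any of the 10 genes, had an adjusted limma p of 0.0717 and was 0.18 with the GC trend removed and 0.34 without vehicle replicate 1. BSG, the chaperone that carries MCT4 and MCT1 to the membrane, averaged 112 ± 4.19 FPKM with CBD and 94.7 ± 4.08 FPKM with vehicle (SD, n = 3 each), with an adjusted limma p of 0.0636 and a difference of 0.24 that was 0.04 with the GC trend removed. SLC16A1, the MCT1 carrier, named after its values were seen, ran the other way at 33.2 ± 1.09 FPKM with CBD and 39.3 ± 2.61 FPKM with vehicle (SD, n = 3 each, adjusted limma p 0.0738). It stayed lower, at -0.16, with the GC trend removed.

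Of 15 other sugar transporters 6 were tested, 3 wholly above and 2 wholly below vehicle. SLC2A5, the fructose transporter GLUT5, averaged 1.63 ± 0.159 FPKM with CBD and 1.06 ± 0.346 FPKM with vehicle (SD, n = 3 each), with an adjusted limma p of 0.124. SLC2A9, a urate transporter, averaged 5.03 ± 0.185 FPKM with CBD and 5.66 ± 0.254 FPKM with vehicle (SD, n = 3 each, adjusted limma p 0.130). Both kept their direction with the GC trend removed, at 0.31 and -0.15.

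Among 21 other glycolytic enzymes 11 were tested, and 2 lay wholly above and 1 wholly below vehicle, with a median of -0.01. PFKL, the liver-type phosphofructokinase, averaged 18.8 ± 0.519 FPKM with CBD and 15.4 ± 1.48 FPKM with vehicle (SD, n = 3 each, adjusted limma p 0.0753), a log2 difference of 0.28 that was 0.04 with the GC trend removed. The aldolase gene ALDOA averaged 3.29 ± 0.360 FPKM with CBD and 2.54 ± 0.612 FPKM with vehicle (SD, n = 3 each, adjusted limma p 0.196), and since 42.3% of its exon bases also belong to AC093512.2, its value is uncertain. Of 4 enzymes of fructose 2,6-bisphosphate 2 were tested, PFKFB4 at 2.99 ± 0.105 FPKM with CBD and 2.54 ± 0.289 FPKM with vehicle (SD, n = 3 each, adjusted limma p 0.172) and PFKFB2, whose groups overlapped.

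The pyruvate dehydrogenase list covers the route from pyruvate into the mitochondrion's citrate cycle and holds both the complex and the enzymes that switch it on and off. Of its 12 genes 10 were tested and 0 called, with 1 wholly above and 5 wholly below vehicle and a median of -0.11, which was -0.02 with the GC trend removed. PDP2, a phosphatase that activates the complex, averaged 4.20 ± 0.122 FPKM with CBD and 5.23 ± 0.410 FPKM with vehicle (SD, n = 3 each, adjusted limma p 0.0717). PDK2, a kinase that inactivates it, averaged 8.07 ± 0.462 FPKM with CBD and 6.64 ± 0.428 FPKM with vehicle (SD, n = 3 each, adjusted limma p 0.0763). With the GC trend removed the difference of PDP2 was -0.22 and that of PDK2 was 0.11.

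In the pentose phosphate pathway, which branches from glycolysis to make NADPH and ribose, all 7 genes were tested, with 3 wholly above and 1 wholly below vehicle. RPE, an epimerase of the non-oxidative branch, averaged 19.6 ± 0.458 FPKM with CBD and 23.4 ± 0.862 FPKM with vehicle (SD, n = 3 each, adjusted limma p 0.0588). Transketolase, encoded by TKT, averaged 66.2 ± 0.493 FPKM with CBD and 58.8 ± 0.705 FPKM with vehicle (SD, n = 3 each, adjusted limma p 0.0702). With the GC trend removed the difference of RPE was -0.14 and that of TKT 0.04.

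Of 5 alpha-arrestins related to TXNIP 4 were tested, 1 wholly above and 1 wholly below vehicle. ARRDC1, which drives budding of vesicles from the plasma membrane, averaged 24.9 ± 0.634 FPKM with CBD and 20.3 ± 0.499 FPKM with vehicle (SD, n = 3 each). Its adjusted limma p of 0.0538 was the lowest of the 66 genes, and its difference of 0.28 was 0.06 with the GC trend removed. ARRDC3 averaged 5.95 ± 0.448 FPKM with CBD and 7.11 ± 0.372 FPKM with vehicle (SD, n = 3 each, adjusted limma p 0.0897), opposite in direction to TXNIP.

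All 8 transcription factors of glycolytic genes were tested, with 3 wholly above and 1 wholly below vehicle. HIF1A, the oxygen-regulated subunit of HIF-1, had 97.1, 92.3 and 94.5 FPKM in CBD libraries, against 136.9, 100.6 and 110.3 FPKM in vehicle libraries. The CBD libraries were all lower and close together, and vehicle replicate 1 was far above the rest. The HIF1A difference was -0.28 with an adjusted limma p of 0.135, and it was -0.15 without vehicle replicate 1 and -0.12 with the GC trend removed. MLXIP, a glucose-sensing factor also known for inducing TXNIP, averaged 9.88 ± 0.238 FPKM with CBD and 8.90 ± 0.326 FPKM with vehicle (SD, n = 3 each, adjusted limma p 0.117). Among 12 genes of glycogen and gluconeogenesis 11 were tested, 4 wholly above and 2 wholly below vehicle. GAA, the lysosomal glucosidase that breaks down glycogen, averaged 56.2 ± 1.06 FPKM with CBD and 45.9 ± 3.03 FPKM with vehicle (SD, n = 3 each, adjusted limma p 0.0604). The pyruvate carboxylase gene PC averaged 7.64 ± 0.228 FPKM with CBD and 6.37 ± 0.348 FPKM with vehicle (SD, n = 3 each, adjusted limma p 0.0690). With the GC trend removed, GAA stood at 0.03, PC at 0.04 and MLXIP at 0.02.

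**Figure D4:**
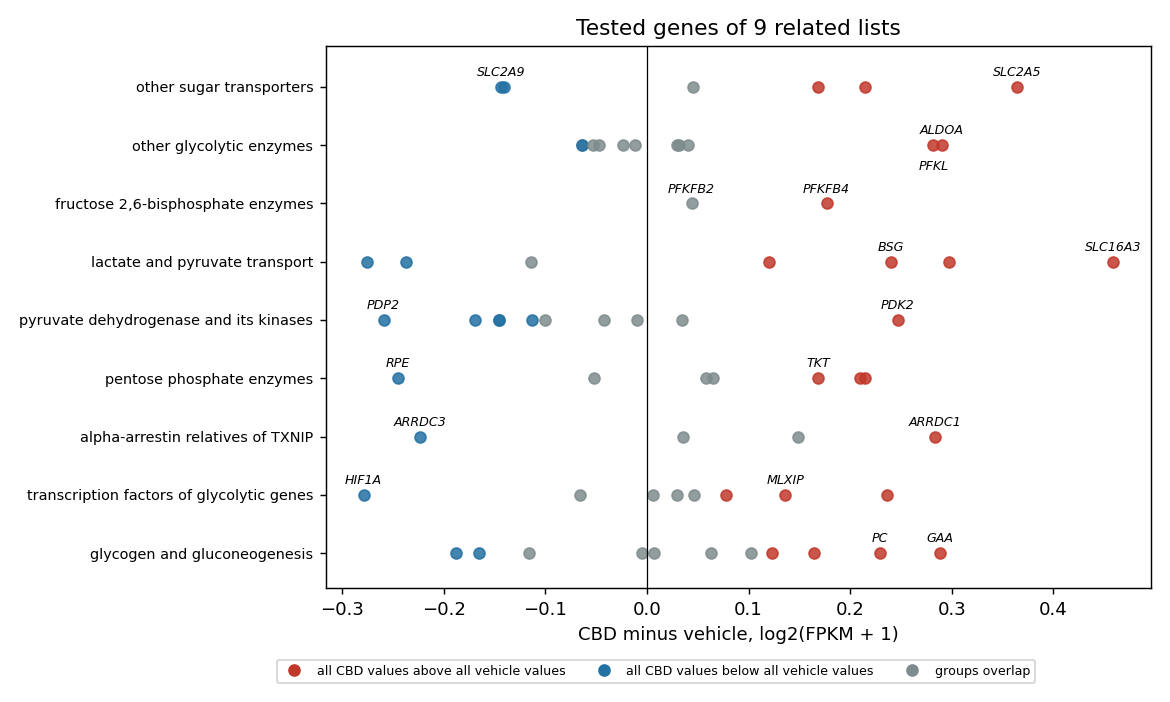
Difference of each tested gene of the 9 related lists, CBD minus vehicle, on the log2(FPKM + 1) scale, 1 point per gene, in red where all CBD libraries lie above all vehicle libraries, blue where all lie below and grey where the groups overlap. The 66 points fall on both sides of 0, with 22 red and 15 blue, and SLC16A3 lies farthest to the right.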

How the data were processed

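RNA from 3 CBD-pretreated and 3 vehicle-pretreated HOK-16B samples was read from one table of FPKM values per gene and library, which the authors deposited unpooled, per the file headers. Alignment by HISAT2 2.0.5 and counting by featureCounts 1.5.0-p3 are listed, per the submitters' processing notes. The sources used here give no genome build, annotation or strand setting, so genes overlapping on opposite strands cannot be told apart. All 58735 gene identifiers were found in GENCODE 29 and 58207 had a current symbol. Groups came from the treatment labels. FPKM values multiplied by GENCODE exon length gave whole reads in 100% of values (tolerance 0.01), so a depth of 3 reads on 1 kb corresponds to 0.126 to 0.153 FPKM, which covers counting error only. FPKM divides by the library total, so an abundant gene shifts the others.

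The values were tested in R 4.3.3 with limma 3.58.1 (intensity trend, two-sided) on log2(FPKM + 1), a scale that understates the change of low genes, for genes with a mean of at least 1 FPKM, with Benjamini-Hochberg adjustment at 0.05. The residual degrees of freedom were 4. The procedure was tested on simulated data. Scaled, filtered, count-based, GC-corrected (loess span 0.3), blocked and leave-one-out alternatives were run. From each list of 4 or more related genes the 2 with the lowest adjusted p were named, besides any called. The 10 genes and the lists were chosen with earlier results of these data known, and the analysis of shares was added after the values were seen. Replicates of a group differed by more than sampling noise. The free-text descriptions number the line differently for each sample, and HOK-16B was taken for all.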

Additional observations from a re-analysis of the deposited data

How the results depend on the processing

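The 28 named genes under 15 alternatives gave 414 values. None of these genes was called in the main test, so none could lose a call. Of the values, 372 kept their direction and stayed over the threshold, and 38 came under it. Reversed were PFKP (-0.0615), PGK1 (0.0687) and PKM (-0.0514) with the GC trend removed and PFKFB2 without vehicle replicate 1, whose difference ran from -0.0247 to 0.0795 when 1 library was left out. The calls among all genes, 32 higher and 12 lower, depended on the setting. They were 0 and 0 with no filter (4670 genes with an unadjusted p under 0.05), 427 and 305 of 7275 tested genes with a mean of at least 5 FPKM, 47 and 14 with median-ratio scaling, 2 and 2 with TPM scaling, 0 and 1 without the intensity trend, 909 and 836 with limma-voom, and 4 and 4 with the GC trend removed. Leaving out 1 library gave 0 to 1260 higher and 0 to 1072 lower. The highest counts came without vehicle replicate 2. Without vehicle replicate 1 there were 2 and 2, without CBD replicate 3 there were 1 and 0, and without CBD replicate 1, CBD replicate 2 or vehicle replicate 3 there were 0 and 0 (2602, 2453 and 2940 genes with an unadjusted p under 0.05). The cause was not tested.

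Of the 10 genes, 2 were called higher with a mean of at least 5 FPKM and with limma-voom, 1 with median-ratio scaling and 0 to 2 when 1 library was left out. SLC2A1 and TXNIP higher and LDHA lower were called without vehicle replicate 2, so the count called lower ran from 0 to 1. In that setting 1260 of 12524 tested genes were called higher and 1072 lower. The median difference of all genes stayed between -0.03 and -0.001 over the settings. Of 48 family shares recomputed with 1 library left out, 0 moved by more than 1 SD. Leaving out 1 of 3 libraries cannot move a group mean that far, so the count could not differ. The share difference of HK2 ran from -4.42 to -3.11 percentage points and that of SLC2A1 from 3.78 to 4.77. That of PFKFB3 ran from -4.24 to -1.53 percentage points.

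The deviations of same-numbered libraries from their group means had correlations of -0.003, 0.052 and 0.024, all under 0.1. Not every library correlated best with its own number, so the values showed no pairing by number. With 3 libraries per group they cannot settle whether same-numbered samples were handled together. With the replicate number as a replicate block, 0 genes were called higher and 0 lower by limma, with 3676 at an unadjusted p under 0.05, and 0 of the 10 genes. Each of the 10 genes had at least 453 reads in every library.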

Other observations

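Glycolysis-related genes with a mean under 1 FPKM were not tested, and some are named here after their values were seen. PDK4, a kinase that shuts pyruvate out of the citrate cycle when fat is burned, had 66, 43 and 49 recovered reads in CBD libraries, against 30, 18 and 24 in vehicle libraries. Its level was 0.516 ± 0.101 FPKM with CBD and 0.248 ± 0.0581 FPKM with vehicle (SD, n = 3 each), and with no filter on low values its adjusted limma p was 0.212. SLC2A3, the high-affinity glucose transporter GLUT3, lay below vehicle in every CBD library, opposite to SLC2A1, at 0.489 ± 0.0585 FPKM with CBD and 0.667 ± 0.0697 FPKM with vehicle (SD, n = 3 each). Its adjusted limma p with no filter was 0.421, and its reads can be split with its near-identical neighbour SLC2A14. SLC2A14 ran the other way without overlap, at 0.235 ± 0.0333 FPKM with CBD and 0.175 ± 0.0205 FPKM with vehicle (SD, n = 3 each). How reads were divided between these genes was not tested. PDK1, a kinase of the same kind as PDK4, averaged 0.641 ± 0.111 FPKM with CBD and 0.868 ± 0.0636 FPKM with vehicle (SD, n = 3 each), with an adjusted limma p of 0.416 with no filter.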
